A study of Homo sapiens with 16 samples.

Results

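Human embryonic stem cells of the H9 line were carried through 70 days of neural differentiation in the continuous presence of Thiamet-G (TMG) or of its solvent, and their RNA was compared between both arms. The 4 libraries described here, of 16 in the series, were taken by their titles and column names: 2 from D70 cultures with 40 µM TMG and 2 from D70 control cultures with DMSO alone. All cells came from the single unmodified line H9 and all received the same protocol, in which the BMP inhibitor LDN193189 and the TGF-β receptor kinase inhibitor SB431542 were given at the start of differentiation in both arms. Undifferentiated cells (D0) and D12 and D30 cultures, with 2 libraries per arm, make up the other 12 libraries. The study's methods call the 2 replicates of each stage biological. A separate treatment tag goes against the titles for 8 of the 16 libraries: at every stage it marks both replicate 1 libraries as control and both replicate 2 libraries as TMG. The titles and column names were followed, and if the tag were right, the difference between replicates described here would be that of the treatment. The labels alone cannot settle which holds. The levels of OGT and OGA by title at each stage are given below with the enzymes of the cycle.

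TMG blocks O-GlcNAcase (OGA), the enzyme that removes the single sugar O-GlcNAc from serine and threonine residues of nuclear and cytoplasmic proteins. O-GlcNAc transferase (OGT) adds that sugar from UDP-GlcNAc, the product of the hexosamine pathway, which branches from glycolysis. Dual SMAD inhibition turns pluripotent cells into neuroepithelium, and cultures of this age can hold radial glia, intermediate progenitors, cortical neurons and first astroglia beside other derivatives such as choroid plexus, pigment epithelium and mesenchyme-like cells.

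Library totals were 17757289 and 12213409 counts in the controls and 14100441 and 12416576 with TMG. Levels below are CPM, counts scaled to a common library size by TMM, where 3 counts correspond to 0.171 to 0.26 CPM. Values are given in the order control replicate 1, control replicate 2, TMG replicate 1, TMG replicate 2. All were measured in bulk RNA, in which fewer cells of a type and less RNA per cell cannot be told apart.

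Marker levels set the libraries apart by replicate, and several markers of the cells named by the protocol were at or near 0 in TMG replicate 2. PAX6, a transcription factor of neural progenitors, stood at 272, 290, 536 and 2.34 CPM. The neuronal genes STMN2, with 40.9, 41, 70.2 and 1.21 CPM, and DCX, with 456, 141, 383 and 13.3 CPM, were also lowest in TMG replicate 2. EOMES, the marker of intermediate progenitors, had 9.54, 2.54 and 8.38 CPM in the other libraries and no count in TMG replicate 2. Both libraries of replicate 2 were instead rich in fibrillar collagens: COL1A1 stood at 2136, 18895, 1715 and 25873 CPM, and the 16 genes of the mesenchyme list summed to 8766, 49971, 6213 and 69947 CPM. Keratins, the intermediate filaments of epithelia, summed to 392, 2174, 536 and 13359 CPM. Pigment epithelium genes summed to 540, 2571, 516 and 156 CPM, and choroid plexus genes to 9687, 591, 3459 and 227 CPM, or to 964, 407, 797 and 226 CPM without the most abundant gene of that list. Other neural genes were still present in TMG replicate 2: TUBB3 stood at 82.6 CPM and MAP2 at 83.4 CPM, against 146 to 234 CPM and 105 to 299 CPM in the other libraries. The label of a neural culture was thus only partly borne out in TMG replicate 2. Results are given by library or by replicate pair, TMG replicate 1 against control replicate 1 (pair 1) and TMG replicate 2 against control replicate 2 (pair 2), so that pair 1 shows the value without that library.

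**Figure D1:**
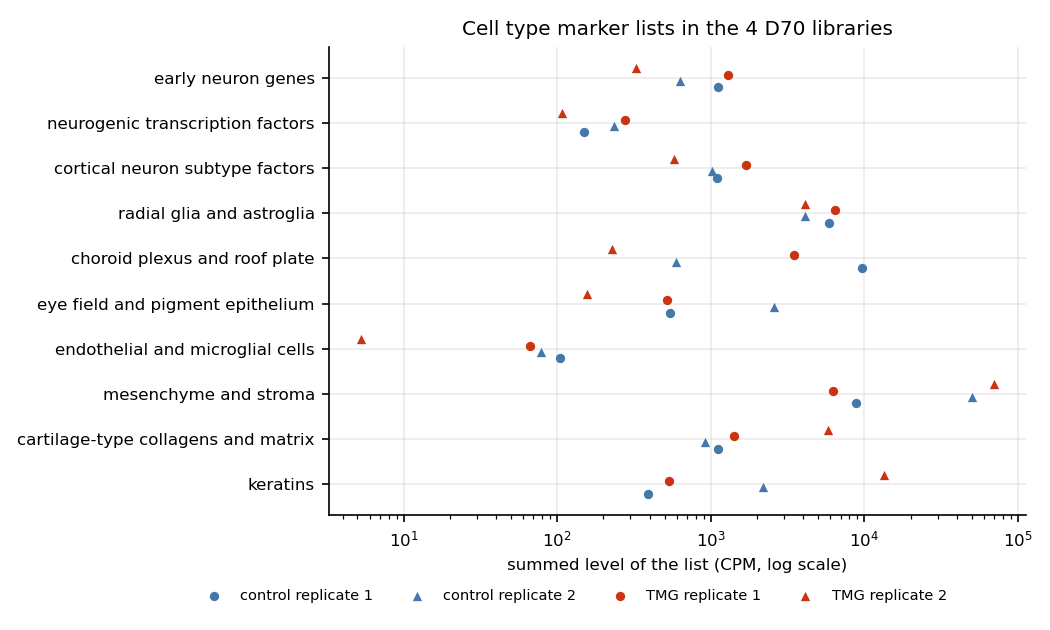
Summed level of each marker list (CPM, log axis) in the 4 D70 libraries, with controls in blue, TMG in red, circles for replicate 1 and triangles for replicate 2. TMG replicate 2 is the lowest library for early neuron genes (328 CPM) and the highest for keratins (13359 CPM), and both replicate 2 libraries are highest for mesenchyme.

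The first question was which genes differed with TMG on D70 once the replicate was taken into account. With edgeR and the replicate as a block, 20024 genes were tested and 0 (0%) were called at a false discovery rate of 5%, the lowest adjusted p being 0.852. At an unadjusted p under 0.05 there were 999 genes (4.99%), with 531 higher (2.65%) and 468 lower (2.34%) in TMG. That share is the one the threshold itself gives, but it depended on the fit. Without the block 90 genes were higher and 73 lower at that threshold, and on 16 libraries with the block 1219 and 1680. On the 4 libraries DESeq2 with the replicate block called 69 genes higher (0.345%) and 27 lower (0.135%). Of these 96, 91 had an unadjusted p under 0.05 by edgeR with the block. Of the 69 higher genes, 26 were under 1 CPM in both replicate 1 libraries and were read from replicate 2.

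The direction in pair 1 said little about the direction in pair 2. Across genes, which are not independent replicates, the log2 ratios of both pairs correlated at 0.0514, and their SD was 0.58 in pair 1 and 0.93 in pair 2. Of all genes tested 28.1% were higher in both pairs, 27.5% were lower in both and 44.4% went opposite ways or did not move in one pair. At least 2-fold in both pairs, 146 genes were higher (0.729%) and 223 lower (1.11%). A further 279 genes (1.39%) were at least 2-fold higher in pair 1 and 2-fold lower in pair 2, against 41 (0.205%) the other way round. Both TMG libraries lay above both controls for 2124 genes (10.6%) and below both for 2137 (10.7%).

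**Figure D2:**
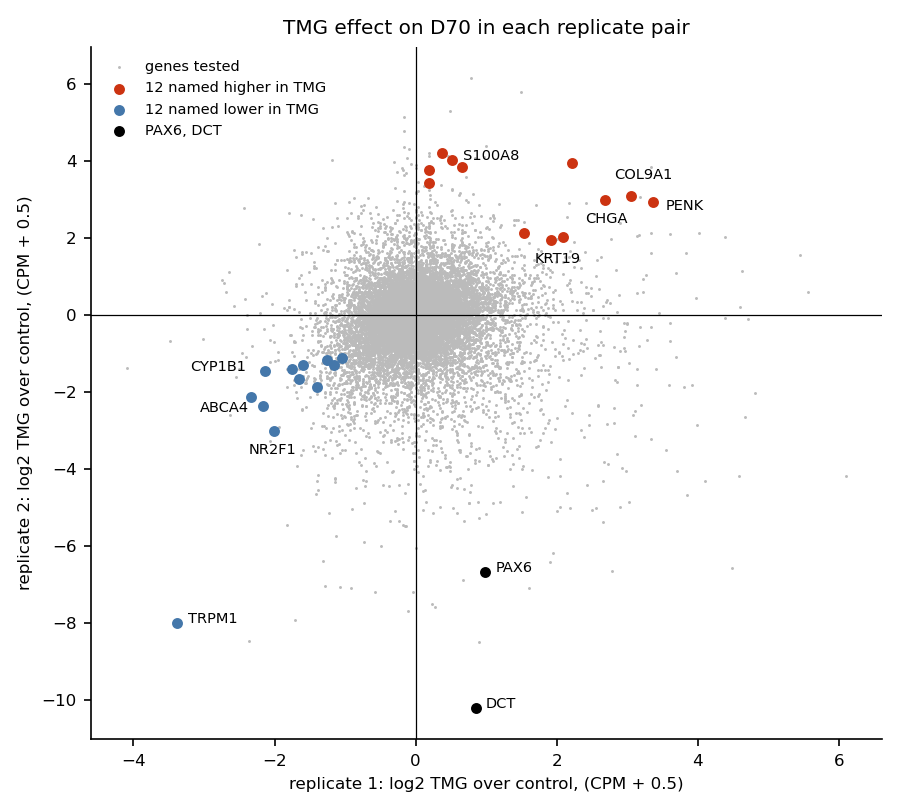
Log2 ratio of TMG to control in replicate 1 (horizontal axis) and replicate 2 (vertical axis) for the 20024 genes tested, after adding 0.5 CPM. The 12 genes named as higher (red) and the 12 named as lower (blue) were chosen for one sign in both pairs. Among them S100A8, S100A9, GJB6, IVL and SPRR1B give no usable ratio in pair 1. PAX6 and DCT (black) are higher in pair 1 and far lower in pair 2.

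The clearest difference was in COL9A1, which encodes a chain of the cartilage collagen type IX and lies on chr6:70925743-71012787 (GRCh37, minus strand). Its values were 24.2 and 43.1 CPM in control and 204 and 372 CPM in TMG. Both TMG libraries lay far above both controls, and the ratio was 8.44 in pair 1 and 8.64 in pair 2. The log2 fold change was 3.09 ± 0.17 (SE), with an unadjusted p of 0.000216 by edgeR and an adjusted p of 1.05e-18 by DESeq2. It was also the gene called when the spread was shared over all 16 libraries with the block, where edgeR gave an adjusted p of 0.0294. Its levels at earlier stages were close in both arms at D0, with 36.3 and 42.2 CPM in control and 38.3 and 33.6 CPM in TMG on the scale of 16 libraries.

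CHGA and PENK, which encode proteins of secretory granules, had ratios of similar size in both pairs. CHGA, encoding chromogranin A of dense-core granules (chr14:93389495-93401630, plus strand), had 2.74, 11.3, 20.4 and 93.8 CPM. Its TMG libraries lay above both controls, with ratios of 7.45 and 8.32, a log2 fold change of 2.98 ± 0.20 and an adjusted p of 3.69e-09 by DESeq2. PENK, the precursor of the enkephalin opioid peptides, had 6.8, 39, 74.6 and 304 CPM, ratios of 11 and 7.78, a log2 fold change of 3.20 ± 0.22 and an adjusted p of 1.36e-15 by DESeq2. By edgeR the unadjusted p was 0.000393 for CHGA and 0.000439 for PENK, and neither passed after adjustment.

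The 250 bases before the CHGA start site are shown because it holds a perfect cAMP response element, in capitals, at 54 to 47 bases before the start. The element TGACGTCA, which reads the same on both strands, is in 1.65% of 35116 RefSeq promoters of that length. The sequence is from RefSeq and was located at chr14:93389245-93389494 (GRCh37, plus strand). The match is a description of the letters only. The DNAI3 promoter printed further below also holds TGACGTCA, not marked there, and DNAI3 was lower in TMG in both pairs.
CHGA: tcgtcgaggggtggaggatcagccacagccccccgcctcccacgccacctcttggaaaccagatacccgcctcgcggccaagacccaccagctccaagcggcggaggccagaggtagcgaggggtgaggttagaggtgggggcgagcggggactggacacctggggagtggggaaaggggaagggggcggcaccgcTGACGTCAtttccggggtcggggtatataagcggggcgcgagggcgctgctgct

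The remaining 9 of the 12 genes named as higher included several genes known from stratified epithelium, and for 5 of the 9 the difference was seen in replicate 2 alone. The calprotectin subunits S100A9 (0, 21, 0.0722 and 294 CPM) and S100A8 (0, 27, 0.217 and 450 CPM) had at most 3 counts in each replicate 1 library. The same held for GJB6, a gap junction protein, with 0, 6.94, 0.0722 and 79.6 CPM. IVL (involucrin, a protein of the cornified envelope) had 0, 3.73, 0.144 and 78.2 CPM, and its partner SPRR1B had 0, 9.71, 0.289 and 146 CPM. For these genes pair 1 gives no usable ratio. KRT19, CDH1 and C6orf132 had counts in all 4 libraries. KRT19, a keratin of simple epithelia, had 16.6, 146, 64.4 and 569 CPM with ratios of 3.87 and 3.89 and a log2 fold change of 1.96 ± 0.17. CDH1, which encodes E-cadherin, had 2.17, 73.4, 7.22 and 326 CPM and a log2 fold change of 1.96 ± 0.20. C6orf132 had 2.46, 11.6, 12.1 and 49.4 CPM and a log2 fold change of 2.19 ± 0.22. The processed pseudogene FABP5P7 had 0.229, 1.19, 2.89 and 25.8 CPM, with ratios of 12.6 and 21.6, and reads may have been split between it and its parent gene. For KRT19 and CDH1 control replicate 2 lay above TMG replicate 1, so the arms overlapped although each pair differed.

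Families of epithelial genes were chosen after their values were seen. Most keratin and desmosome genes were higher in pair 2, while claudins had no common direction. Of 55 keratin genes 22 were tested, and 13 of these were higher and 0 lower at an unadjusted p under 0.05, against 2.65% and 2.34% of all genes. All 22 were higher in pair 2, where 50.5% of all genes were, and 12 were under 1 CPM in both replicate 1 libraries. In the pairs 13 were higher in both and 9 went opposite ways or did not move in one, against 28.1% and 44.4% of all genes. The median log2 ratio of the keratins was 0.17 in pair 1 and 2.87 in pair 2. KRT17 had 10.5, 345, 35.4 and 2522 CPM, and KRT1 had 313 CPM in control replicate 2, 2823 CPM in TMG replicate 2 and no count in replicate 1. Near-identical keratins such as KRT6A, KRT6B and KRT6C share reads, so their separate values are uncertain. Of 13 desmosome genes, which tie epithelial cells together, 8 were higher and 0 lower, among them DSP, the plaque protein desmoplakin, with 91.1, 496, 188 and 2329 CPM. The summed desmosome level was 443, 1268, 670 and 5140 CPM, above its own control in both pairs. Of 17 claudin genes tested, which form tight junctions, 1 was higher and 2 lower at an unadjusted p under 0.05. In both pairs 3 were higher and 7 lower, against 28.1% and 27.5% of all genes. Their median log2 fold change was -0.36, with median log2 ratios of -0.29 in pair 1 and -0.08 in pair 2. The claudin sum was 411, 197, 330 and 336 CPM. TMG replicate 2, with the highest keratin and desmosome sums, is the library with the lowest PAX6, STMN2 and DCX, and the part of that difference in cell makeup was not tested.

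Among the 12 genes named as lower, ABCA4, a retinoid transporter best known from photoreceptors and also present in pigment epithelium, came first (chr1:94458390-94586704, minus strand). It had 114 and 86.5 CPM in control against 24.8 and 16.4 CPM in TMG. The arms did not overlap, the controls being 4.58 times higher in pair 1 and 5.26 times higher in pair 2, and the log2 fold change was -2.29 ± 0.18, with an adjusted p of 2.54e-07 by DESeq2. NR2F1 (COUP-TFI), a nuclear receptor that sets the area pattern of the cortex, had 391, 147, 96.5 and 17.6 CPM (chr5:92918928-92930317, plus strand). Its log2 fold change was -2.53 ± 0.36, with an unadjusted p of 0.00512 by edgeR and an adjusted p of 6.92e-07 by DESeq2. The antisense gene NR2F1-AS1 had 39.6, 27, 14.7 and 7.1 CPM and a log2 fold change of -1.67 ± 0.25. The gene models of both overlap and the library kit does not record strand, so reads in the overlap cannot be assigned. SOX2, which holds neural progenitors in their state, had 99.4, 47, 48.2 and 21.2 CPM, which is -1.04 in pair 1 and -1.13 in pair 2 on the log2 scale. Control replicate 2 lay just below TMG replicate 1.

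Further genes of this group were low in both pairs. CYP1B1, a monooxygenase that also acts on retinoids and steroids, had 274 and 159 CPM in control and 61.7 and 58 CPM in TMG (-1.81 ± 0.26). CPS1, the mitochondrial entry enzyme of the urea cycle, had 18.3 and 32 against 3.25 and 6.92 CPM (-2.35 ± 0.25). The WNT antagonist DKK2 had 107 and 67.3 against 34.8 and 27.3 CPM (-1.46 ± 0.19). For these genes both TMG libraries lay below both controls. PRDM16-DT (172, 9.33, 54.2 and 2.6 CPM), the WNT agonist RSPO2 (153, 4.7, 45.2 and 1.47 CPM), the sugar transporter SLC2A12 (108, 10.8, 45.1 and 4.5 CPM) and the sperm-tail-related ODF3B (76.9, 7.99, 34.2 and 2.94 CPM) were each lower within a pair, but replicate 1 was so far above replicate 2 that the arms overlapped. TRPM1, a melanocyte and bipolar cell channel, had 6.23 and 151 CPM in control and 0.144 and 0.0865 CPM in TMG, the latter being 3 counts or fewer.

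**Figure D3:**
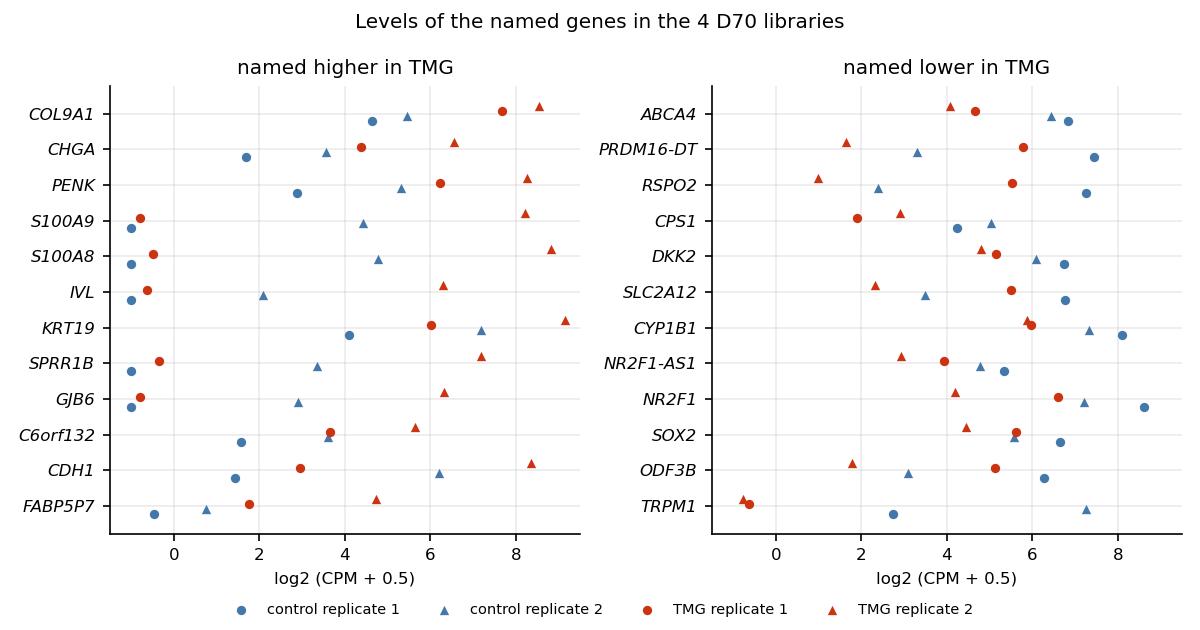
Levels of the 12 genes named as higher and the 12 named as lower in TMG, as log2 (CPM + 0.5) in each D70 library, ordered by unadjusted p with the lowest at the top. COL9A1 and ABCA4 separate the arms in both replicates, while S100A8, S100A9, IVL, SPRR1B and GJB6 are near 0 CPM in both replicate 1 libraries.

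Radial glia keep the ventricular zone and later give rise to astroglia, and HOPX and ALDOC serve as markers of outer radial glia and astroglia. HOPX was low in every library, with 2.86, 4.4, 2.02 and 12.2 CPM, and the pairs went opposite ways (log2 -0.41 and 1.37). Its log2 fold change was 0.52 ± 0.68, with an unadjusted p of 0.499. ALDOC had 17.9, 43.5, 12.9 and 4.5 CPM, both TMG libraries lying below both controls. Its log2 fold change was -1.84 ± 0.90 with an unadjusted p of 0.132, of which -0.46 came in pair 1 and -3.14 in pair 2. COL9A1, HOPX and ALDOC thus had no common direction. Of 26 radial glia and astroglia genes 0 were higher and 1 lower at an unadjusted p under 0.05, 2 were higher in both pairs, 10 lower in both and 14 opposite, against 2.65%, 2.34%, 28.1%, 27.5% and 44.4% of all genes. The median log2 fold change was -0.31 (-0.21 in pair 1, -0.46 in pair 2) against 0.01 for all genes. The lower gene was MOXD1, a monooxygenase relative, with 2.91, 34.9, 1.44 and 14.2 CPM. GFAP, the astrocyte filament protein, had 51.8 CPM in TMG replicate 1, against 2.8, 3.73 and 0.0865 CPM in the other libraries. The most abundant members, the filament protein VIM with 2691, 1677, 3509 and 1508 CPM and the gap junction gene GJA1 with 416, 617, 717 and 761 CPM, had unadjusted p of 0.704 and 0.1.

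COL9A1 is one of 11 cartilage-type matrix genes read as a list. Of these 5 were higher and 0 lower at an unadjusted p under 0.05, 7 were higher in both pairs and 0 lower in both, against 2.65%, 2.34%, 28.1% and 27.5% of all genes. The median log2 ratio was 0.21 in pair 1 and 2.53 in pair 2, and 3 of the 5 were under 1 CPM in both replicate 1 libraries. Without COL9A1, 4 of the other 10 were higher at that threshold and 6 were higher in both pairs. COL9A3, another chain of collagen type IX, had 71.5, 42.5, 125 and 223 CPM and a log2 fold change of 1.60, its TMG libraries lying above both controls. The proteoglycan gene ACAN (0.229, 34.8, 0.361 and 483 CPM), the link protein gene HAPLN1 (0.114, 61.6, 0.722 and 228 CPM) and MATN4 (0.0572, 2.61, 0.144 and 26.3 CPM) were under 1 CPM in both replicate 1 libraries. COL2A1, the main cartilage collagen, had 333, 203, 301 and 2607 CPM and was thus below its control in pair 1. The list summed to 1114, 915, 1414 and 5816 CPM, and in pair 1, without TMG replicate 2, the log2 ratio was 3.05 for COL9A1 and 0.80 for COL9A3.

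Most genes of sugar breakdown were lower with TMG in both pairs, by less than 2-fold in pair 1 and by up to -3.14 on the log2 scale (ALDOC) in pair 2. Of 22 glycolysis and gluconeogenesis genes 0 were higher and 5 lower at an unadjusted p under 0.05, 15 were lower in both pairs and 3 higher in both, and for 14 both TMG libraries lay below both controls. Of all genes tested, 2.34% were lower at that threshold, 27.5% lower in both pairs and 10.7% below both controls. The median log2 ratio was -0.37 in pair 1 and -0.81 in pair 2. PGK1, which makes the first ATP of the pathway, had 384 and 508 CPM in control and 231 and 233 CPM in TMG, a log2 fold change of -0.93 ± 0.21 with an unadjusted p of 0.0179. ALDOA, the main aldolase, had 635, 699, 397 and 322 CPM (-0.90 ± 0.23). PFKP, a phosphofructokinase, had 196, 137, 110 and 40.1 CPM (-1.30 ± 0.31). The glucose transporter SLC2A1 had 657, 924, 361 and 617 CPM (-0.72 ± 0.21). For these 4 genes the arms did not overlap. The same held for hexokinase 2 (HK2), with 110, 207, 101 and 38.7 CPM, and the neuronal enolase ENO2, with 224, 283, 174 and 48.2 CPM, which were more than 2-fold lower in pair 2 (log2 -2.40 and -2.54) but not in pair 1 (-0.12 and -0.37), with unadjusted p of 0.176 and 0.124. For lactate dehydrogenase A (LDHA) they did, with 104, 288, 78.6 and 160 CPM (-0.63). The housekeeping enzyme GAPDH had 1380, 1493, 1117 and 876 CPM, a log2 fold change of -0.54 with an unadjusted p of 0.117. The muscle-type pyruvate kinase PKM, with 882, 726, 909 and 429 CPM, was lower in pair 2 alone. FBP1, PCK2 and SLC2A3 were the 3 members higher in both pairs.

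Genes of the hypoxia response, which HIF factors induce when oxygen is low and which include glycolytic genes as known targets, were lower too. Of 16 such genes 0 were higher and 6 lower at an unadjusted p under 0.05, 15 were lower in both pairs and 0 higher in both, and for 9 both TMG libraries lay below both controls, against 2.34% lower at that threshold, 27.5% lower in both pairs and 10.7% below both controls of all genes. The median log2 ratio was -0.26 in pair 1 and -0.76 in pair 2, and the summed level was 1366, 2358, 1030 and 1564 CPM. P4HA1, a collagen prolyl hydroxylase, had 270, 293, 165 and 183 CPM (-0.69 ± 0.17, unadjusted p 0.0221). The mitophagy receptor BNIP3L had 192, 187, 129 and 121 CPM (-0.60 ± 0.16), with -0.57 in pair 1 and -0.62 in pair 2. ANGPTL4, a lipase inhibitor, had 14.8, 9.11, 7.65 and 2.42 CPM (-1.41 ± 0.40), and ANKRD37 had 11.9, 10.4, 6.35 and 3.55 CPM (-1.22 ± 0.35). BNIP3, a relative of BNIP3L, had 82.6, 131, 49.4 and 36 CPM, and the mTORC1 inhibitor DDIT4 had 90.2, 245, 64.2 and 158 CPM. VEGFA, the angiogenic factor, had 239, 452, 204 and 223 CPM with an unadjusted p of 0.109. None of the 38 entries of both lists was called after adjustment by edgeR or DESeq2.

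The promoter of PGK1, the glycolytic gene with the lowest p, is shown because it holds the core ACGTG of the hypoxia response element at 2 places, in capitals (CACGT is the same core on the other strand). Searched on both strands in the 250 bases before the start, ACGTG is in 33.3% of 42 promoters of the glycolysis list, 58.8% of 17 of the hypoxia list and 18.5% of all 35116 promoters. RefSeq gives several start sites for some genes, and 21 of 22 and 13 of 16 genes had an entry. The PGK1 sequence was located at chrX:77359495-77359744 (GRCh37, plus strand).
PGK1: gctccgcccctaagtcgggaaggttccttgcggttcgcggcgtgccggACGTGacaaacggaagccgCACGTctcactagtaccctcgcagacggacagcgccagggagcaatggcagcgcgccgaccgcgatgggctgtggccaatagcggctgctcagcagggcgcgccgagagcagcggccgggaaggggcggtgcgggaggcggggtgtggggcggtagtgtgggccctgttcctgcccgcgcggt

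**Figure D4:**
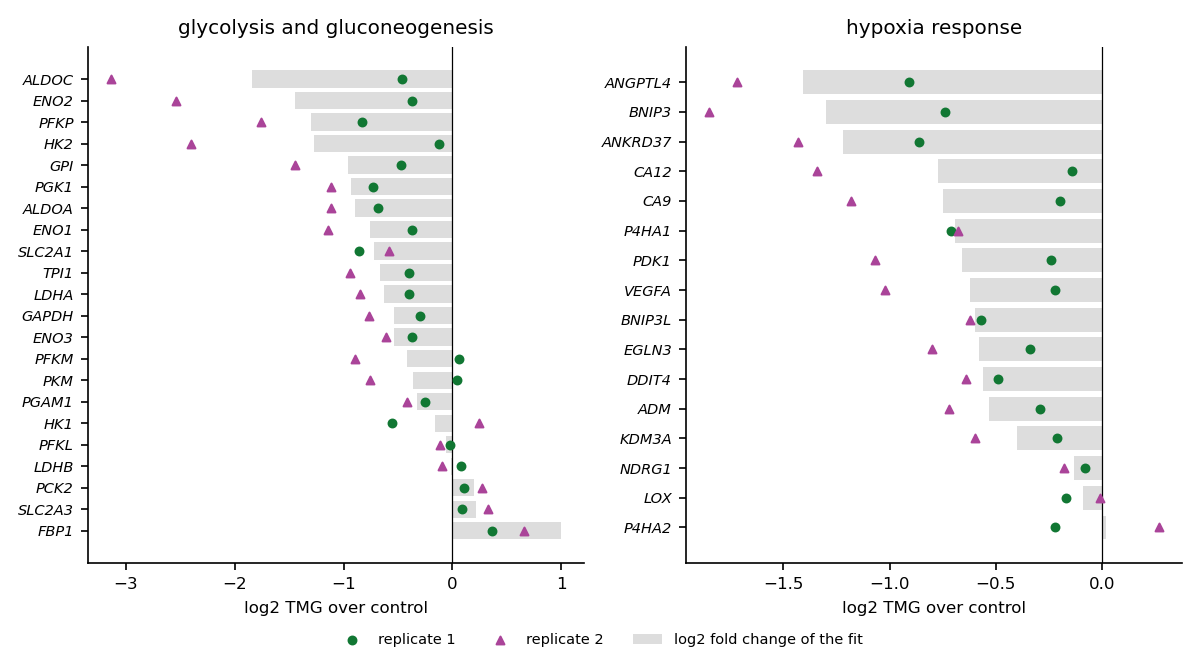
Log2 ratio of TMG to control on D70 for the genes of the glycolysis list (left) and the hypoxia list (right), in replicate 1 (circles), in replicate 2 (triangles) and as fitted by edgeR with the replicate block (bars). Of 22 glycolysis genes 15 and of 16 hypoxia genes 15 lie below 0 in both replicates.

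Genes of the motile cilium formed a family that was lower in both pairs, seen only after looking at the values. Of 61 genes tested with CFAP, DNAH or DNAI symbols, which name proteins and dynein chains of the ciliary axoneme, 0 were higher and 14 lower at an unadjusted p under 0.05, against 2.34% of all genes lower. In both pairs 51 were lower and 0 were higher, against 27.5% and 28.1% of all genes. The median log2 ratio was -0.88 in pair 1 and -1.13 in pair 2. The summed level was 3988, 516, 2213 and 312 CPM. CFAP70 had 239, 25.5, 116 and 8.22 CPM (-1.33), DNAH7, a heavy chain, had 223, 13.7, 113 and 2.6 CPM (-1.61), CFAP126 had 65.5, 4.48, 29.1 and 1.38 CPM (-1.39) and DNAI3 had 50.8, 3.06, 23 and 1.12 CPM (-1.27). Replicate 1 was the higher library in each arm, so both TMG libraries lay below both controls for only 2 of the 61 genes, against 10.7% of all genes. CFAP70 was called lower by DESeq2 (adjusted p 0.0458).

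The promoters of CFAP126 and DNAI3 are shown as members of this family with the core GTTGCC of the X-box, the element that RFX factors bind at ciliary genes (capitals; GGCAAC is the same core on the other strand). On both strands of the 250 bases before the start, GTTGCC is in 29 of 65 RefSeq promoters of the 53 family genes with an entry, 44.6%, and in 10.2% of all promoters. CFAP126 was located at chr1:161337667-161337916 (GRCh37, printed on its minus strand) and DNAI3 at chr1:85527760-85528009 (plus strand).
CFAP126: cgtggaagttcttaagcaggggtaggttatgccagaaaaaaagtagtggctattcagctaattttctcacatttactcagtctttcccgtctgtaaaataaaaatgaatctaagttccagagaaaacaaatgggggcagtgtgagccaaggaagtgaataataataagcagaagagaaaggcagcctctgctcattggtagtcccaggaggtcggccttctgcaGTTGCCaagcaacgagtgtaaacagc
DNAI3: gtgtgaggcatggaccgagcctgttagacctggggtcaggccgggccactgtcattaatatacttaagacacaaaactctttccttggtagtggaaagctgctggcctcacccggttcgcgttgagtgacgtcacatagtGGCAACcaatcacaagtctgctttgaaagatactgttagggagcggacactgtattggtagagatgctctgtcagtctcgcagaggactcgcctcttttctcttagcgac

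Choroid plexus, a secretory epithelium with cilia, showed the same order of libraries. Of 14 choroid plexus and roof plate genes 0 were higher and 5 lower at an unadjusted p under 0.05, 8 were lower in both pairs and 1 higher in both, against 2.34% lower at that threshold and 27.5% lower in both pairs of all genes. The median log2 ratio was -0.46 in pair 1 and -0.89 in pair 2. The folate receptor FOLR1 had 71.2, 2.99, 33.2 and 0.952 CPM (-1.32 ± 0.25, unadjusted p 0.0105). LMX1A, a roof plate transcription factor, had 101, 2.09, 50.2 and 0.952 CPM (-1.05 ± 0.19). The potassium channel KCNJ13 had 34.6, 14.4, 19.9 and 9.86 CPM, and PCP4 had 38.5, 7.91, 14.4 and 3.89 CPM. The axoneme sum and the choroid plexus sum had the same order over the 4 libraries, control replicate 1, TMG replicate 1, control replicate 2 and TMG replicate 2, and the choroid plexus sum kept that order without its most abundant gene, which held most of it in replicate 1. This check was chosen after the values were seen. Whether fewer choroid plexus cells account for the lower axoneme level was not tested.

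Eye field and pigment epithelium genes differed most between control replicate 2 and TMG replicate 2. Of 12 genes tested of 14, 0 were higher and 1 lower at an unadjusted p under 0.05, against 2.65% and 2.34% of all genes. In both pairs 7 were lower, 4 of them at least 2-fold, and for 5 both TMG libraries lay below both controls, against 27.5%, 1.11% and 10.7% of all genes. Their median log2 ratio was -0.19 in pair 1 and -6.08 in pair 2. TYRP1, a melanosome enzyme, had 33.8, 300, 6.21 and 0.346 CPM and was thus lower in pair 1 too. DCT, an enzyme of melanin synthesis, had 61.2, 999, 111 and 0.346 CPM, and PMEL, a melanosome protein, had 95, 555, 87.8 and 2.16 CPM. MITF, the master regulator of pigment cells, had 63.7, 45.3, 34.9 and 4.15 CPM, both TMG libraries lying below both controls. RPE65, the retinoid isomerase of this epithelium, had 56.6, 1.27, 18.3 and 0.0865 CPM and was the gene with an unadjusted p under 0.05 (0.0286). SERPINF1, a secreted factor of the pigment epithelium, had 128, 289, 187 and 137 CPM, with opposite directions in the pairs. ABCA4 and TRPM1, named above, also belong to pigmented or retinal cells as background.

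Neuronal genes went opposite ways in the pairs. Of 14 early neuron genes 11 did, against 44.4% of all genes, with a median log2 ratio of 0.77 in pair 1 and -1.74 in pair 2, and CHGA was the member with an unadjusted p under 0.05. The microtubule proteins TUBB3 (191, 146, 234 and 82.6 CPM) and MAP2 (287, 105, 299 and 83.4 CPM) had unadjusted p of 0.512 and 0.538. Of 15 neurogenic transcription factors 10 went opposite ways (0.68 in pair 1, -2.33 in pair 2) and 0 had an unadjusted p under 0.05. INSM1, which drives neuroendocrine and basal progenitor fates, had 9.89, 25.1, 57.6 and 35.6 CPM, and POU3F3 had 25.9, 12.8, 20.7 and 18.8 CPM. TBR1, of deep-layer neurons, had 43.6, 3.58, 29 and 0.0865 CPM. Of 22 synapse genes 17 went opposite ways and 1, the scaffold SHANK2 (58.5, 21.8, 41.9 and 11.3 CPM), was lower at an unadjusted p under 0.05. At that threshold 2.65% of all genes were higher and 2.34% lower. The postsynaptic scaffold DLG4 (86.9, 81.3, 97.1 and 42.7 CPM) and the vesicle protein VAMP2 (60.4, 79.4, 73.3 and 59.9 CPM) did not pass. In pair 1, which leaves out TMG replicate 2, the medians of these 3 lists were above 0 (0.70 for synapse genes, against -0.94 in pair 2), from 1 library per arm.

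Progenitor factors and cortical subtype genes were mixed in direction. Of 18 progenitor and Notch genes 0 were higher and 2 lower at an unadjusted p under 0.05, against 2.65% and 2.34% of all genes. In both pairs 3 were higher and 7 lower, and 8 went opposite ways, against 28.1%, 27.5% and 44.4% of all genes. The lower genes were SOX2 and the forebrain factor FEZF1 (41.6, 1.27, 14.1 and 0.0865 CPM). NR2E1 (TLX), a factor of neural stem cells, had 13.3, 13.4, 4.77 and 0.0865 CPM, and EMX2, of the dorsal telencephalon, 53.6, 14.7, 21.7 and 10.6 CPM, neither passing. Of 16 cortical subtype factors 4 were higher in both pairs, 4 lower in both and 8 opposite, and 1 was higher and 1 lower at the same threshold. BCL11B (CTIP2), of subcerebral projection neurons and also of skin, had 17.8, 35.8, 31.5 and 122 CPM (1.30 ± 0.32), and LMO3 had 66.5, 11, 32.1 and 1.82 CPM (-1.75 ± 0.49).

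Receptors and inhibitory neuron genes were mixed in direction. Of 24 glutamate receptor subunits 3 were higher and 2 lower at an unadjusted p under 0.05, against 2.65% and 2.34% of all genes. GRM3, a presynaptic and glial metabotropic receptor, had 6.29, 1.49, 29.6 and 11.2 CPM, ratios of 4.71 and 7.53, a log2 fold change of 2.55 ± 0.33 and an adjusted p of 0.00447 by DESeq2. GRIK2, a kainate receptor, had 13.6, 18, 22 and 28.9 CPM (0.69 ± 0.20), and for both genes the TMG libraries lay above the controls. GRM4 had 0.914, 5.9, 2.74 and 13.2 CPM, while the NMDA receptor subunits GRIN3A (17.8, 7.24, 8.67 and 4.07 CPM) and GRIN2A (16.7, 3.81, 9.39 and 1.21 CPM) were the lower ones. Of 16 genes of GABA neurons 11 were tested, with 3 higher and 0 lower at that threshold, and their median log2 fold change was 1.26 (0.87 in pair 1, 0.11 in pair 2). These were ISL1, a homeobox gene of striatal and spinal neurons, with 0, 2.54, 3.32 and 18.3 CPM, DLX5 with 0, 1.64, 0.65 and 10 CPM and DLX6 with 0.114, 0.821, 0.578 and 2.68 CPM, all low. DLX5 and DLX6 also serve in mesenchyme and epithelium.

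WNT pathway genes went both ways. Of 30 genes 2 were higher and 2 lower at an unadjusted p under 0.05, 12 were higher in both pairs and 7 lower in both, against 2.65%, 2.34%, 28.1% and 27.5% of all genes. The median log2 ratio was 0.03 in pair 1 and 0.28 in pair 2. The ligand WNT4 had 2.8 and 8.96 CPM in control and 68.4 and 38.1 CPM in TMG. The arms did not overlap, the ratio was 24.4 in pair 1 and 4.25 in pair 2, and DESeq2 gave an adjusted p of 0.000846 against an unadjusted edgeR p of 0.027. The receptor FZD1 had 79, 74.4, 219 and 123 CPM (1.10 ± 0.26), and FZD8 had 40.5, 38.3, 29.5 and 21.7 CPM (-0.64 ± 0.21). The feedback target AXIN2 had 81.5, 61.1, 103 and 131 CPM, above both controls in both TMG libraries, with an unadjusted p of 0.0677. The agonist RSPO2 was the other lower gene.

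The enzymes of O-GlcNAc cycling themselves differed little. OGA, the target of TMG, had 263 and 291 CPM in control and 380 and 377 CPM in TMG, a log2 fold change of 0.45 ± 0.18 with an unadjusted p of 0.0838. OGT had 445 and 424 against 556 and 613 CPM (0.43 ± 0.20, unadjusted p 0.115). For both genes the TMG libraries lay above the controls, as they did for 10.6% of all genes. On the scale of 16 libraries OGT was also higher in both TMG libraries than in both controls at the earlier stages, with 403 and 424 CPM in control against 481 and 476 CPM in TMG on D0, 490 and 479 against 635 and 582 CPM on D12 and 434 and 414 against 598 and 720 CPM on D30. The arms named by the titles thus did not overlap for OGT at any stage, while arms named by the treatment tag would overlap at each. OGA was less clear by title. It had 201 and 327 CPM in control against 358 and 335 CPM in TMG on D0. On D12 it had 340 and 316 against 424 and 340 CPM. On D30 the arms overlapped, with 400 and 403 against 502 and 393 CPM. An inhibitor need not change the RNA of its target. Of 8 genes of the cycle and hexosamine pathway 0 had an unadjusted p under 0.05, and the rate-limiting GFPT1 had 156, 201, 141 and 189 CPM and its homologue GFPT2 23.9, 29.8, 19 and 18.3 CPM.

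Genes of Polycomb and MLL complexes, which write and erase methyl marks on histone H3, moved by small amounts. Of 20 genes 0 had an unadjusted p under 0.05. In both pairs 11 were higher and 3 lower, and 6 went opposite ways, against 28.1%, 27.5% and 44.4% of all genes. Both TMG libraries lay above both controls for 9 and below both for 1, against 10.6% and 10.7% of all genes. The median log2 ratio was 0.21 in pair 1 and 0.13 in pair 2. KMT2D, a methyltransferase of enhancers, had 251, 283, 299 and 387 CPM, and KMT2A (MLL1) had 253, 286, 246 and 262 CPM. Of 20 cell cycle genes 2 were higher and 0 lower at an unadjusted p under 0.05 (2.65% and 2.34% of all genes), 12 were higher in both pairs and 0 lower in both (28.1% and 27.5% of all genes), with median log2 ratios of 0.33 in pair 1 and 0.14 in pair 2. The proliferation marker MKI67 had 60.4, 37.4, 118 and 58.3 CPM (0.81 ± 0.18) and the ribonucleotide reductase subunit RRM2 had 14.6, 13.4, 25.9 and 25.6 CPM (0.88 ± 0.20). Of 20 cholesterol synthesis genes 2 were higher and 0 lower at an unadjusted p under 0.05. In both pairs 12 were higher and 2 lower, and 6 went opposite ways. Both TMG libraries lay above both controls for 9 (10.6% of all genes) and below both for 1 (10.7%). The median log2 ratio of this list was 0.02 in pair 1 and 0.85 in pair 2. Mevalonate kinase (MVK) had 9.66, 10.4, 18.6 and 25.4 CPM (1.11 ± 0.24). Of 6 pluripotency, MYC and KLF genes tested of 9, MYC (11.6, 12.4, 21.9 and 35.8 CPM) and MYCL (7.03, 17.8, 14.3 and 53.6 CPM) were higher. Of 16 immediate early and stress genes 0 had an unadjusted p under 0.05: the chaperone HSPA5 had 521, 464, 434 and 552 CPM and the stress factor ATF4 had 86.6, 168, 90.3 and 224 CPM.

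Lists of cells that a neural culture need not hold were read for completeness of the cell makeup, and their genes are counted as higher or lower at an unadjusted p under 0.05, which 2.65% and 2.34% of all genes reached. Of 16 mesenchyme genes 3 were higher and 1 lower: fibronectin (FN1) had 547, 3887, 1062 and 8170 CPM (1.01 ± 0.25), COL6A3 3.6, 793, 13.8 and 1850 CPM (1.56 ± 0.29) and POSTN 2.63, 350, 8.38 and 662 CPM (1.26 ± 0.28), while the pericyte receptor PDGFRB had 230, 209, 150 and 139 CPM (-0.60 ± 0.16). Of 11 neural crest and dorsal cord genes tested of 14, 3 were higher and 1 lower. TFAP2B had 0, 12.6, 0.578 and 74.5 CPM, SNAI2 had 2.34, 23.1, 3.83 and 44.9 CPM and ISL1 is given above. The defining crest gene FOXD3 had at most 2 counts in any library. PAX3, of the dorsal cord, had 137 CPM in TMG replicate 1 against 5.2, 9.18 and 10.7 CPM elsewhere. Of 7 oligodendrocyte genes tested of 11, 1 was higher, CSPG4 (29.5, 75.3, 49 and 253 CPM), and 1 lower, and OLIG2 had 1 count in all. Of 12 midbrain, hindbrain and HOX genes tested of 18, 2 were higher, among them LMX1B (2.63, 14, 7.58 and 23.5 CPM). Of 6 endothelial and microglial genes tested of 11, CSF1R, the macrophage growth factor receptor (2.51, 9.03, 0.722 and 0.779 CPM), and CLDN5, a tight junction gene (71, 4.55, 18.2 and 0.173 CPM), were lower.

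The last comparison asked whether the TMG effect on D70 differed from that on D30, which shares no library with D70. The arms of D30 were taken from the titles too, against the same tag in 2 of its 4 libraries. In one fit of all 16 libraries with the replicate as a block within each stage, edgeR called 0 of 24249 genes (0%) for this difference, the lowest adjusted p being 0.0927. At an unadjusted p under 0.05 the D70 effect was higher for 814 genes (3.36%) and lower for 1509 (6.22%), and DESeq2 called 52 and 175. COL9A1 had a log2 fold change of 0.62 on D30, with 69.6 and 77.2 CPM in control and 136 and 92.8 CPM in TMG, and the D70 effect was larger by 2.45 ± 0.29 (unadjusted p 4.45e-05, adjusted 0.18 by edgeR). CHGA had a log2 fold change of 5.04 on D30, a difference of -2.09 ± 0.60 (unadjusted p 0.00943), from controls of 0.094 and 0.652 CPM and TMG libraries of 4.66 and 20.4 CPM. PENK had 5.63 on D30, a difference of -2.46 ± 1.21 (unadjusted p 0.0812), and its D30 level was 3.57, 13.3, 32.8 and 2181 CPM, so that one library held most of it. NR2F1 had a log2 fold change of -2.54 on D30, a difference of -0.01 ± 0.88 (unadjusted p 0.988), with 347 and 421 CPM in control and 120 and 35.7 CPM in TMG. CPS1 (-1.58 on D30) and SOX2 (-1.44) were lower at both stages too.

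Of the ranked genes CYP1B1 and DKK2 had opposite signs on D30 and D70, each by more than 2 SE at both stages. CYP1B1 had a log2 fold change of 1.45 on D30 and -1.81 on D70, a difference of -3.28 ± 0.42 (unadjusted p 8.13e-05). Its D30 levels were 7.24 and 8.68 CPM in control and 15.4 and 29.6 CPM in TMG. DKK2 had 1.83 on D30, a difference of -3.31 ± 0.56 (unadjusted p 0.000529). The D30 level of DKK2 was 10.3, 23.8, 20.2 and 144 CPM, so the arms overlapped and TMG replicate 2 held most of it. KRT19 had -0.35 ± 0.34 on D30, within about 1 SE of no change, a difference of 2.28 ± 0.48 (unadjusted p 0.00195). TRPM1, with 0, 0.201, 0.389 and 1.33 CPM on D30, and GJB6, with 0.282, 0, 0 and 0.189 CPM, had too few counts there for a direction. The same held for IVL (0, 0, 0.389 and 0.189 CPM), SPRR1B (0, 0, 0.194 and 0.568 CPM) and FABP5P7 (0, 0, 0.194 and 0 CPM). S100A8 (0, 0.0502, 0.486 and 0.757 CPM) and S100A9 (0, 0.1, 1.75 and 0.473 CPM) also rested on few counts on D30. HOPX had 2.28 on D30 and 0.52 on D70, a difference of -1.76 ± 1.11 (unadjusted p 0.159), and ALDOC had -1.90 and -1.84. None of these differences passed after adjustment by edgeR.

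**Figure D5:**
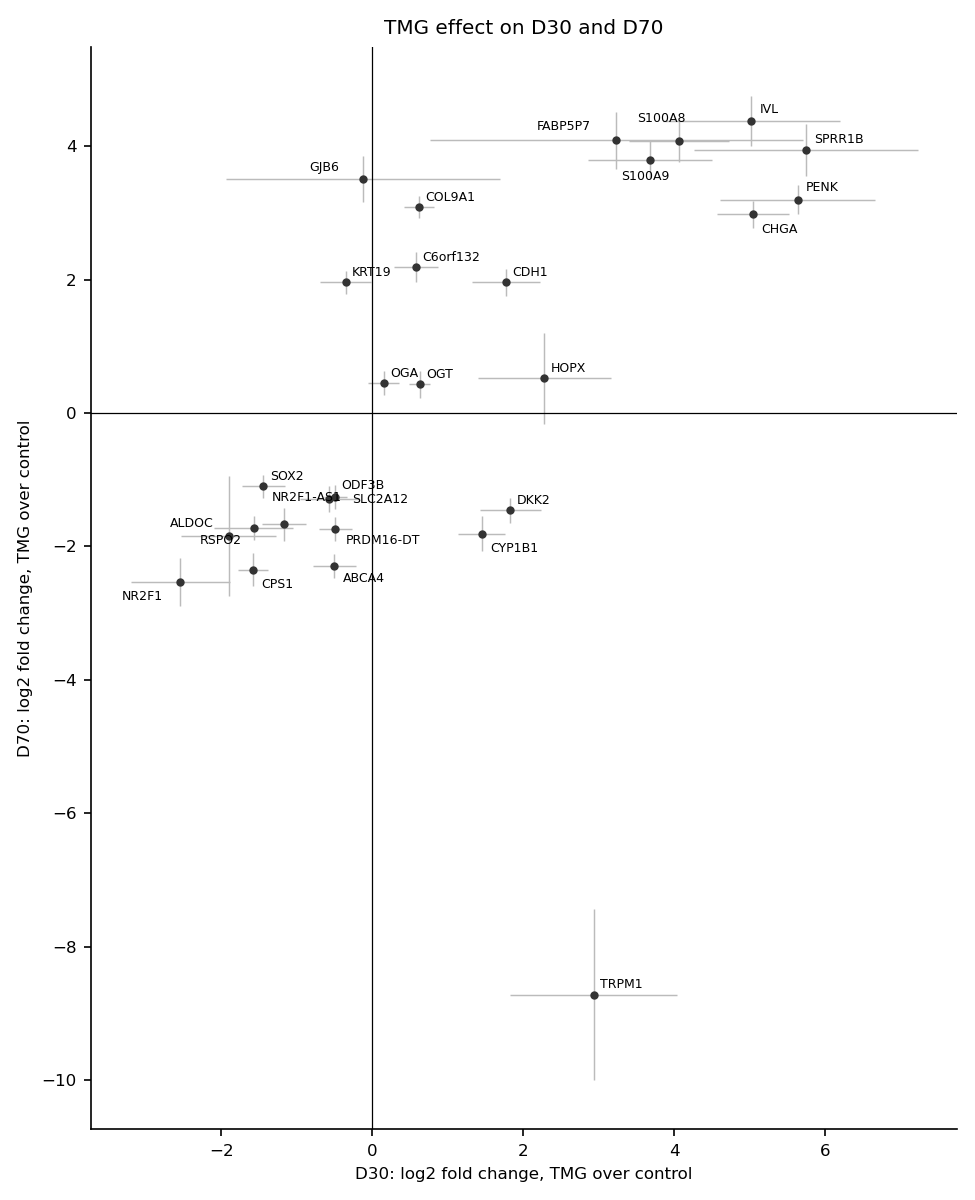
Log2 fold change of TMG over control on D30 (horizontal axis, fit of 16 libraries) and on D70 (vertical axis, fit of the 4 D70 libraries) for the 24 ranked genes and HOPX, ALDOC, OGA and OGT, with bars of 1 SE. CHGA, PENK and NR2F1 keep their sign, COL9A1 moves from 0.62 to 3.09, and CYP1B1 and DKK2 change sign. TRPM1, GJB6, IVL, SPRR1B, S100A8, S100A9 and FABP5P7 rest on few counts on D30.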

How the data were processed

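RNA was depleted of ribosomal RNA and sequenced from 16 libraries. The authors aligned reads to hg19 with Bowtie2 and deposited the expected counts that RSEM 1.2.12 estimated per Ensembl gene, as whole numbers and not normalized. The file held 57736 genes, of which 20766 had no count in the 4 D70 libraries. Titles gave the groups. GRCh37 coordinates of genes came from GENCODE v44lift37. Symbols came from a separate list of gene names, and from GENCODE where that list had none.

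TMG was tested against control with edgeR 4.0.16 (R 4.3.3; quasi-likelihood F-test, robust) on 4 libraries, with TMM, filterByExpr (minimum count 10, minimum total count 15), the replicate as a block and Benjamini-Hochberg adjustment. This left 1 residual degree of freedom, a median prior of 2.29 and a common biological coefficient of variation of 0.364. SE is the log2 fold change over the root of F. Log2 ratios of a pair add 0.5 CPM. The difference from D30 used all 16 libraries. Scripts were tested on simulated data. DESeq2 1.42.0, RLE, no filter, no block, 16 libraries and each library left out were alternatives.

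The labels do not say what a replicate number shares. Differences between replicates 1 and 2 correlated between arms at 0.651 on D70, 0.292 on D30, 0.454 on D12 and 0.0589 on D0 over 24249 genes, and replicates differed by a chi-square of 84.08 (control) and 105.9 (TMG) per degree of freedom.

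Genes were named as the 12 lowest p in each direction with a symbol, a mean of at least 1 CPM, a log2 fold change of at least 1 and one sign in both pairs, as HOPX, ALDOC, COL9A1, OGA and OGT, and as the leading members of 25 lists. Other genes, the gene families and the promoter motifs were chosen after their values were seen. The comparison and the lists were chosen with earlier results of these data known. NEFL and PECAM1 were not analysed here, and some list members are not reported here.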

Additional observations from a re-analysis of the deposited data

How the results depend on the processing

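The count of genes depended on the test. Called at 5%, DESeq2 with the replicate block gave 69 genes higher and 27 lower and without the block 2 and 2, and edgeR on 16 libraries with the block gave 1 higher, against 0 and 0 in the 4-library edgeR fit. At an unadjusted p under 0.05, where that fit had 531 higher and 468 lower, there were 90 and 73 without the replicate block, 823 and 830 without a filter on low counts, 156 and 112 by DESeq2 without the block and 1219 and 1680 on 16 libraries with the block.

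For the difference between D70 and D30, DESeq2 called 52 genes higher and 175 lower, and without the block 391 and 586 genes had an unadjusted p under 0.05. Leaving out 1 library at a time gave 0 to 131 called higher and 0 to 685 called lower, with 583 to 1413 higher and 1116 to 2805 lower at an unadjusted p under 0.05. Such a fit rests on the pair left and assumes that this pair varies like the other stages. The same fit of D70 alone gave 10 to 306 called higher, 0 to 722 called lower, 1118 to 1940 higher and 916 to 2902 lower at an unadjusted p under 0.05. Of 88 named genes 7 changed sign without either replicate 2 library, and over the libraries left out their log2 fold changes ran from -11.48 to 0.82 for DCT, -0.95 to 0.12 for DLG4, -0.55 to 1.45 for HOPX, -0.35 to 0.02 for MAP2, -0.38 to 0.53 for POU3F3, -1.09 to 0.51 for SERPINF1 and -0.42 to 0.24 for VAMP2. Without either replicate 1 library 2 did, HSPA5 (-0.32 to 0.24) and VIM (-0.17 to 0.34). HSPA5 was at 0.00 in edgeR without the block and POU3F3 at -0.01 on 16 libraries without it. RLE size factors and the lack of a filter changed the sign and the call of none of the 88. The comparison has 2 libraries per arm, with TMG replicate 2 apart from the others, and a gene with under 3 counts in a library (0.171 to 0.26 CPM) gives no usable ratio there.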

Other observations

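Imprinted genes were not in any list and were read after their values were seen. H19, a maternally expressed non-coding RNA of growing tissues, had 28.9 and 2655 CPM in control and 97.8 and 7901 CPM in TMG, with log2 ratios of 1.74 in pair 1 and 1.57 in pair 2 and an unadjusted p of 0.00512 by edgeR. DLK1, a paternally expressed Notch ligand relative, had 126 and 764 CPM in control and 55.8 and 214 CPM in TMG and was called lower by DESeq2 (adjusted p 0.00472). Both genes stood higher in replicate 2 of each arm, as the mesenchyme list did, and the part of cell makeup in these differences was not tested.

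The basement membrane collagens COL4A1 (271, 151, 409 and 404 CPM) and COL4A2 (385, 228, 551 and 465 CPM) had TMG libraries above both controls, with log2 fold changes of 1.01 and 0.77 and unadjusted p of 0.0377 and 0.04. Of 43 collagen genes tested, chosen after their values were seen, 6 were higher and 0 lower at an unadjusted p under 0.05, 11 were higher in both pairs, 4 lower in both and 28 opposite, against 2.65%, 2.34%, 28.1%, 27.5% and 44.4% of all genes.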
